A study of Mus musculus with 23 samples.

Results

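The 10 genes described here belong to the canonical WNT pathway: the WNT-induced targets Sp5, Cdx1, T and Axin2, the 4 TCF/LEF factors Lef1, Tcf7, Tcf7l1 and Tcf7l2, the receptor gene Fzd7 and the β-catenin gene Ctnnb1. They were chosen by symbol, with earlier results of these data known. All 10 were among the 25124 genes of the deposited RNA table, with 1 RefSeq transcript each. Polyadenylated RNA had been sequenced from Bach1-KO (Bach1 -/-) and wild-type (WT) mouse embryonic stem cells, with 3 libraries per genotype that the submitters call biological triplicates. Both genotypes were of the E14Tg2A line, grown on gelatin in medium with serum and leukemia inhibitory factor (LIF). The knockout had been made with CRISPR/Cas9, and the labels name neither the number of clones nor the edited position. The loss of BACH1 and any other difference between the lines cannot be told apart. The other 17 of the 23 samples were chromatin immunoprecipitation and input samples, not used here.

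In the canonical pathway a WNT ligand binds a Frizzled receptor and an LRP co-receptor at the cell surface. This inhibits the cytoplasmic destruction complex of AXIN, APC and GSK3, so β-catenin escapes degradation, enters the nucleus and binds TCF/LEF proteins on DNA. Without β-catenin these proteins hold their targets down with TLE co-repressors. In mouse embryonic stem cells TCF7L1, called TCF3 in much of the stem cell literature, acts mainly as a repressor, TCF7 acts mainly as an activator, and WNT signalling favours self-renewal together with LIF.

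Levels are in TPM, the share of each transcript among all transcripts of a library after division by its length. TPM keep no read depth, so the counting error is unknown. Listed TPM summed to 605553 to 606200 in the knockout libraries and to 604964 to 605353 in the WT libraries. Differences are given as log2(TPM + 1) of knockout less that of WT, and the added 1 makes changes of low genes look smaller. Each adjusted p comes from limma, with Benjamini-Hochberg adjustment across all 12196 tested genes. Bach1 RNA itself was 1.69, 1.76 and 2.05 TPM in knockout libraries, against 2.35, 2.50 and 2.70 TPM in WT libraries. All 8 defining markers of embryonic stem cells averaged at least 1 TPM in each genotype, and their sum was 6136 to 6310 TPM in knockout and 5073 to 5232 TPM in WT libraries. The sum weighs the most abundant markers most and does not give the direction of each. In bulk RNA, fewer cells with a transcript and less of it per cell cannot be told apart.

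Promoter windows are shown for 4 members because these genes had the largest differences among those with a window: the targets Sp5, T and Axin2, low in the knockout, and the receptor gene Fzd7, high in it. Each runs from 250 bases before to 50 bases after a RefSeq start, 5′ to 3′ on the gene's strand, in build GRCm38.p6. Capitals mark, on either strand, the letters CTTTG followed by AA, AT, TA or TT, the core that TCF/LEF proteins recognise. The windows lie at chr2:70474673-70474972 (plus strand) for Sp5, chr17:8434173-8434472 (plus strand) for T, chr11:108920099-108920398 (plus strand) for Axin2 and chr1:59481897-59482196 (plus strand) for Fzd7.
Sp5: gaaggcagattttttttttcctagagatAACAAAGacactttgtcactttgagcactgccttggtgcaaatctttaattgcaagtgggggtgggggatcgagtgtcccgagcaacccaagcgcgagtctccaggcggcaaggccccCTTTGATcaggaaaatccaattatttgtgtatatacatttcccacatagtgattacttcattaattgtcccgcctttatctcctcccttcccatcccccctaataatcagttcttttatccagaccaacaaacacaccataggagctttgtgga
T: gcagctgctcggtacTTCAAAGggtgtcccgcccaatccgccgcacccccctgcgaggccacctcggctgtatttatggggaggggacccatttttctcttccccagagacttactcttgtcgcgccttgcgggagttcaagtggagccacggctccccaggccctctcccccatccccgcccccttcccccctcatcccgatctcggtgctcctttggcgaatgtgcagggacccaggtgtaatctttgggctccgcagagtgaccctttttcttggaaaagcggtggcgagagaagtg
Axin2: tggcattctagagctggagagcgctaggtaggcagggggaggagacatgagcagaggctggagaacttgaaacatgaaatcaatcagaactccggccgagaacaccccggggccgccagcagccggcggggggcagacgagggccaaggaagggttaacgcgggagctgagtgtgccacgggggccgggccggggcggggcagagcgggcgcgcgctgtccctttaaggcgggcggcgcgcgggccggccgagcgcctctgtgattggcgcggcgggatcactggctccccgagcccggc
Fzd7: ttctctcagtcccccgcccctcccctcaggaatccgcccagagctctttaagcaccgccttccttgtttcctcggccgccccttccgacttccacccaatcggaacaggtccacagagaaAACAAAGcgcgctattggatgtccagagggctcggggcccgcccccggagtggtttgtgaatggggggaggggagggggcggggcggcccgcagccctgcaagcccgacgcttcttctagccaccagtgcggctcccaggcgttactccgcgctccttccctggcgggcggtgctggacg

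The Sp5 window held 2 matches, CTTTGAT on the plus strand at 104 to 98 bases before the start and CTTTGTT on the other strand at 222 to 216 bases before it. The T window held CTTTGAA on the other strand, 235 to 229 bases before the start, and the Fzd7 window held CTTTGTT on the other strand, 130 to 124 bases before it. The Axin2 window held none of the 4 spellings. Of the 9 members with a window, which had 15 windows in all because some have several starts, 5 windows matched, and 16.9% of all 32851 promoter windows of this length did. CTTTGAT alone was in 1 member window, that of Sp5, and in 3.73% of all windows. The letters TGANTCA, the core of the element that BACH1 binds with small MAF proteins, were in 0 of the 15 member windows, with 7.81% over all windows. Matches describe letters in these windows and not binding, and their absence says nothing of sites elsewhere.

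All 4 WNT targets fell in the knockout, as did 54.8% of all tested genes, and 3 of the 4 were under 0.5 TPM there. Sp5, a zinc finger transcription factor induced directly by WNT and β-catenin, was at 0.362, 0.096 and 0.230 TPM in the knockout libraries, against 57.8, 57.5 and 59.7 TPM in the WT libraries. The knockout mean was 0.393% of the WT mean, and the log2 fold change was -5.60 (SE 0.0759, adjusted p = 6.57e-11). Among all tested genes 1 had a lower log2 fold change than Sp5. Cdx1, a caudal-type homeobox gene of the posterior body axis on chromosome 18, was at 0.406, 0.387 and 0.331 TPM in knockout libraries, against 34.8, 34.9 and 36.7 TPM in WT libraries. Its log2 fold change was -4.73 (SE 0.0510, adjusted p = 2.09e-11), the sixth from the bottom of all tested genes. In both genes every knockout library lay far below every WT library.

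T, which encodes the T-box factor Brachyury of the primitive streak, was far lower in WT cells than Sp5 and Cdx1 and fell as well. It was at 0.310, 0.209 and 0.201 TPM in knockout libraries, against 4.37, 5.06 and 4.38 TPM in WT libraries. The knockout mean was 5.22% of the WT mean (log2 fold change -2.17, SE 0.0736, adjusted p = 9.57e-09). Axin2 encodes a scaffold of the destruction complex that WNT signalling induces as negative feedback, and it is the most widely used transcript readout of the pathway. It was at 1.85, 2.16 and 2.07 TPM in knockout libraries, against 8.74, 8.59 and 8.37 TPM in WT libraries. Its knockout mean was 23.7% of the WT mean (log2 fold change -1.66, SE 0.0585, adjusted p = 1.23e-08), so Axin2 kept a larger part of its WT level than the other 3 targets, a comparison made without a test between genes. Knockout and WT values overlapped in neither T nor Axin2.

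Sp5, Cdx1 and T passed the filter of 1 TPM in at least 3 libraries through the WT libraries alone, so a difference was built into their being tested. Of the 8 markers of primitive streak and mesoderm, T among them, 1 averaged at least 1 TPM in knockout libraries and 3 did in WT libraries. Their summed level was 3.99 to 4.53 TPM in knockout and 15.4 to 15.7 TPM in WT libraries. That lower sum came from T itself and from Gsc, a homeobox gene, which was at 0.649, 0.300 and 0.349 TPM in knockout libraries, against 8.63, 8.20 and 8.84 TPM in WT libraries. Without T and Gsc the sum of the other 6 lay the other way, at 3.37 to 4.02 TPM in knockout and 2.38 to 2.47 TPM in WT libraries. Eomes, Mesp1, Foxa2, Tbx6 and Msgn1 averaged higher in knockout libraries and Mixl1 did not, at low levels. Of these only Eomes was tested, and it was not called (log2 fold change 0.23, adjusted p = 0.0589). Its knockout and WT values overlapped. None of the 8 was at 0 in all libraries. The summed level of 8 trophectoderm markers was 397 to 405 TPM in knockout and 86.6 to 89.4 TPM in WT libraries, and 6 of them averaged at least 1 TPM in knockout and 4 in WT libraries. Not all of the 8 rose with the sum. Cdx2, under the filter, was at 0.319, 0.433 and 0.326 TPM in knockout libraries, against 0.604, 0.901 and 0.730 TPM in WT libraries. The summed level of 8 endoderm markers was 23.6 to 25.0 TPM in knockout and 6.20 to 6.57 TPM in WT libraries, with 2 in knockout and 1 in WT at 1 TPM or more on average. That of 8 fibroblast markers was 12.1 to 13.1 TPM in knockout and 4.21 to 4.44 TPM in WT libraries, with 1 in each genotype at 1 TPM or more, and that of 8 neuroectoderm markers was 52.4 to 53.6 TPM in knockout and 86.2 to 89.4 TPM in WT libraries, with 3 in each. The part of these cell states in the target levels was not tested.

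**Figure D1:**
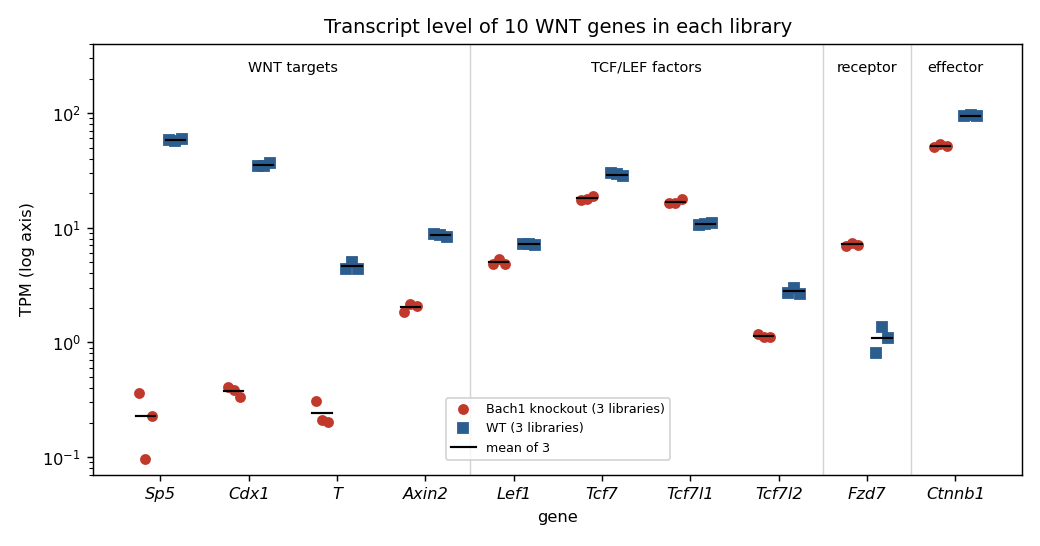
TPM of each of the 10 genes (log axis) in the 3 Bach1 knockout libraries (red circles) and the 3 WT libraries (blue squares), with black bars at the means. Sp5, Cdx1 and T lie below 0.5 TPM in each knockout library, and only Tcf7l1 and Fzd7 lie higher in the knockout.

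The 4 TCF/LEF factors parted: Tcf7l1 rose, and Tcf7, Lef1 and Tcf7l2 fell. Tcf7l1, the repressor of the family in these cells, was at 16.5, 16.3 and 17.7 TPM in knockout libraries, against 10.5, 10.7 and 10.97 TPM in WT libraries (log2 fold change 0.60, SE 0.0450, adjusted p = 1.69e-06). Tcf7 was at 17.5, 17.9 and 18.9 TPM in knockout libraries, against 29.9, 29.1 and 28.1 TPM in WT libraries (log2 fold change -0.66, SE 0.0410, adjusted p = 4.94e-07). Neither gene's knockout and WT values overlapped.

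Lef1, a factor that works mainly with β-catenin as an activator, fell least of the members that fell. It was at 4.84, 5.35 and 4.82 TPM in knockout libraries, against 7.20, 7.19 and 7.08 TPM in WT libraries (log2 fold change -0.44, SE 0.0537, adjusted p = 4.71e-05). Tcf7l2, best known for keeping intestinal stem cells and for its place in diabetes genetics, was the lowest of the 4 in both genotypes. It was at 1.19, 1.11 and 1.11 TPM in knockout libraries, against 2.71, 2.98 and 2.65 TPM in WT libraries (log2 fold change -0.82, SE 0.0622, adjusted p = 1.82e-06). The groups did not overlap in either gene. RefSeq lists 7 curated transcripts for Lef1, 24 for Tcf7l2, and 2 each for Tcf7 and Tcf7l1, and the table gives 1 of each, so isoforms with and without the β-catenin binding part were not separated.

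TPM are per length, so the 4 factors are set against each other within a library. Only 1 transcript of each is listed, and whether its length is that of the isoforms expressed is not known. Their summed level was 40.0, 40.6 and 42.5 TPM in knockout libraries, against 50.3, 50.0 and 48.8 TPM in WT libraries. Tcf7l1 made up 41.0% ± 0.807 of that sum in knockout libraries and 21.6% ± 0.800 in WT libraries (SD, n = 3 each), and Tcf7 made up 44.0% ± 0.353 in knockout and 58.4% ± 0.919 in WT libraries. Lef1 held 12.2% ± 0.939 in knockout and 14.4% ± 0.0995 in WT libraries, and Tcf7l2 held 2.77% ± 0.188 in knockout and 5.59% ± 0.314 in WT libraries. The ratio of Tcf7l1 to Tcf7 was 0.911 to 0.943 in knockout libraries, against 0.351 to 0.390 in WT libraries. Thus in the deposited values the repressor and the activator were at near-equal RNA levels in knockout cells, and Tcf7 led in WT cells. Tcf7 overlaps the gene Skp1, which was at 206 to 213 TPM in knockout and 354 to 372 TPM in WT libraries. Whether Skp1 reads entered the Tcf7 value, and so these sums, shares and ratios, was not tested. The shares are a description with no test.

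**Figure D2:**
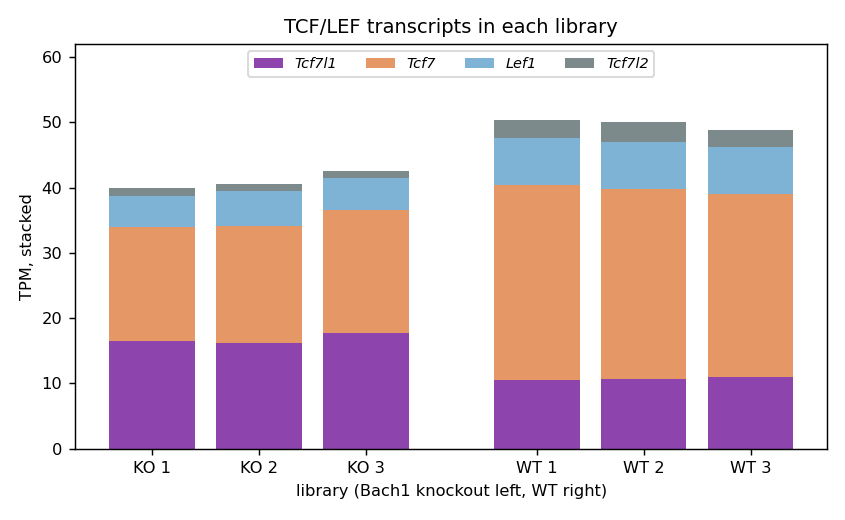
Stacked TPM of Tcf7l1, Tcf7, Lef1 and Tcf7l2 in each knockout library (left) and WT library (right). The stacks reach 40.0 to 42.5 TPM in knockout and 48.8 to 50.3 TPM in WT libraries, and the Tcf7l1 part is taller in the knockout.

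Fzd7, one of the Frizzled receptors and a known contributor to WNT responses of pluripotent cells, rose most of the members. It was at 6.95, 7.35 and 7.12 TPM in knockout libraries, against 0.806, 1.35 and 1.10 TPM in WT libraries, and the knockout mean was 6.57 times the WT mean. Its log2 fold change was 1.97 (SE 0.0925, adjusted p = 7.57e-08). Ctnnb1, which encodes the effector β-catenin and also an adherens junction protein, stayed the highest of the 10 in both genotypes and fell in the knockout. It was at 50.2, 53.7 and 51.4 TPM in knockout libraries, against 94.2, 96.4 and 93.5 TPM in WT libraries (log2 fold change -0.86, SE 0.0312, adjusted p = 1.50e-08). Neither gene's groups overlapped. Against the summed TCF/LEF level, Ctnnb1 stood at 1.21 to 1.32 in knockout libraries and 1.87 to 1.93 in WT libraries. β-catenin is controlled largely by protein degradation, so its RNA does not give its protein level.

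All 10 members passed the test, 2 higher and 8 lower in the knockout, where 83.0% of all tested genes passed, 28.3% higher and 54.8% lower. A count of 10 of 10 is therefore close to the background. Knockout and WT values did not overlap in any member, and in 84.3% of all tested genes they did not overlap either. At least 2-fold on the log2(TPM + 1) scale, 4 members were lower, with 10.4% of all tested genes, and 1 was higher, with 6.63%. With a pseudocount of 5 that total of 5 fell to 2, and with a pseudocount of 0.1 it was 6. The share of all tested genes at 2-fold was not computed for those pseudocounts. The members were chosen with earlier results of these data known, and Sp5, Cdx1 and T passed the filter through the WT libraries alone. An excess over the share of all genes can therefore be built in, and it was not tested. The members' median log2 fold change was -0.84, and that of all tested genes was -0.20. Relative to that shift, Lef1 was at -0.24, Tcf7 at -0.46, Tcf7l2 at -0.62, Ctnnb1 at -0.66, Tcf7l1 at 0.80 and Fzd7 at 2.17, and after quantile normalization Lef1 was at -0.22 (its largest adjusted p over all alternatives was 0.00461). No member changed direction or lost its call under quantile normalization or median-of-ratios scaling between libraries.

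**Figure D3:**
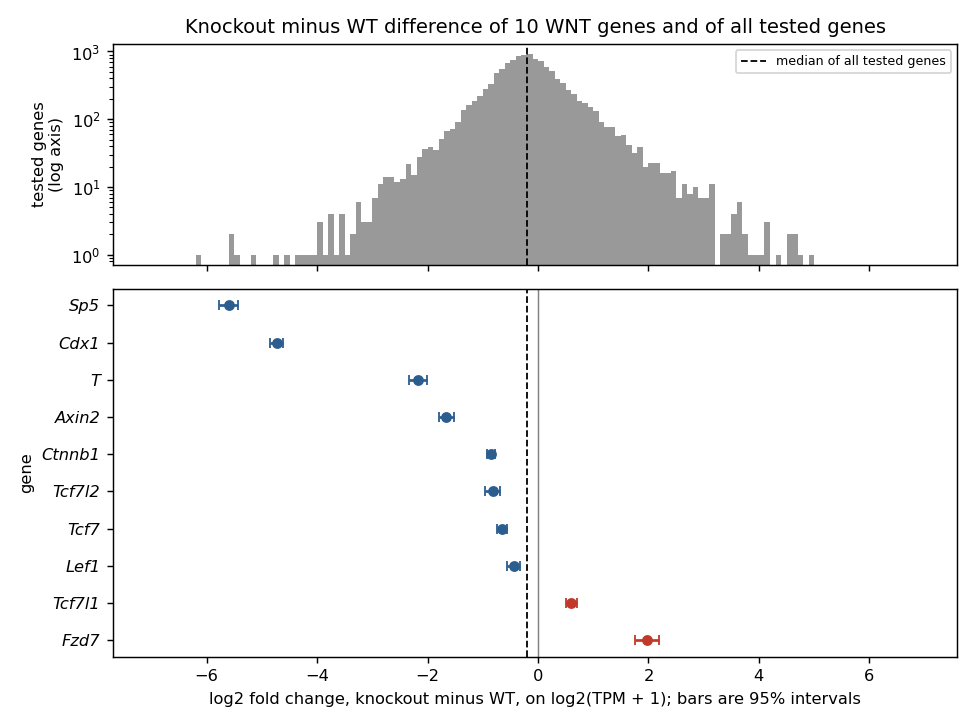
Upper panel, number of tested genes (log axis) by log2 fold change, knockout minus WT, on log2(TPM + 1); lower panel, the same quantity for the 10 genes with 95% intervals, and a dashed line at the median of all tested genes (-0.20). Sp5 (-5.60) and Cdx1 (-4.73) lie at the far left of all genes, and Tcf7l1 (0.60) and Fzd7 (1.97) lie right of 0.

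The order of levels differed between genotypes. From highest to lowest the knockout means ran Ctnnb1, Tcf7, Tcf7l1, Fzd7, Lef1, Axin2, Tcf7l2, Cdx1, T and Sp5. Neighbours whose libraries overlapped were Tcf7 with Tcf7l1 and T with Sp5. In WT cells the order was Ctnnb1, Sp5, Cdx1, Tcf7, Tcf7l1, Axin2, Lef1, T, Tcf7l2 and Fzd7, with no overlap between neighbours. Sp5 thus stood last in knockout cells and second in WT cells, and Fzd7 stood between Tcf7l1 and Lef1 in knockout cells and last in WT cells. Replicates were tight where a gene was well expressed: in WT libraries Sp5 had a coefficient of variation of 2.05%, and in knockout libraries, near 0, it had 58.0%.

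The authors' deposited table of transcripts lower in the knockout listed Sp5, Cdx1, T, Axin2 and Tcf7l2, with log2 fold changes of -7.97, -6.49, -4.39, -2.06 and -1.29. The authors' deposited table of transcripts higher in the knockout listed Fzd7 at 2.69. The smallest fold change in either of the authors' deposited tables was 1 on the log2 scale, and Lef1, Tcf7, Tcf7l1 and Ctnnb1, with smaller changes, were in neither. The log2 ratio of mean TPM without a pseudocount was -7.99 for Sp5, -1.29 for Tcf7l2 and 2.72 for Fzd7. Tcf7l2 therefore passed 2-fold on that scale and not on the log2(TPM + 1) scale.

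The 3 genes that followed the Sp5 pattern most closely over the 6 libraries were found by the root mean square difference of log2(TPM + 1) centred on each gene's WT mean. Bhmt, which remethylates homocysteine with betaine, differed by 0.120, Trpm1, a cation channel, by 0.166 and Crxos, a homeobox gene, by 0.332. Bhmt averaged 0.196 ± 0.0251 TPM in knockout and 53.4 ± 0.207 TPM in WT libraries (SD, n = 3 each). With 2 genotypes this likeness reflects mainly the size of the fall.

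Among 110 other WNT pathway genes, all in the table, 66 were tested, of which 23 rose and 34 fell in the knockout. The 57 called genes were 86.4% of those tested, near the 83.0% of all genes. Of the 66 tested, 20 (30.3%) were called and changed at least 2-fold, 10 in each direction, with 17.1% over all genes. The split depended on the scaling: quantile normalization put 29 higher and 27 lower, and scaling by median of ratios put 30 higher and 25 lower. The median log2 fold change was -0.18 as deposited, 0.00 with quantile-normalized values and 0.01 with median-of-ratios scaling. The other 44 genes stayed under the filter, and none reached more than 0.943 TPM in any library. The wider list, like the members, was chosen with earlier results of these data known. Some of its genes passed the filter through 1 genotype alone, so an excess over the share of all genes can be built in, and it was not tested.

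The called share by role ran from 71.4% (nuclear cofactors) to 100% (ligands and R-spondin axis). Over all tested genes it was 83.0%, with 28.3% higher and 54.8% lower, beside which each count by role below stands. Ligands and their secretion machinery had 4 rises and 3 falls among 7 tested genes of 21, as deposited and under both scalings. Porcn, the acyltransferase that lipidates WNT ligands for secretion, rose to 15.0 ± 0.464 TPM in knockout libraries, against 2.61 ± 0.263 TPM in WT libraries (adjusted p = 3.89e-09), and the ligand gene Wnt5b fell to 0.602 ± 0.0622 TPM in knockout libraries, against 2.20 ± 0.448 TPM in WT libraries (adjusted p = 1.16e-05). The other rises were those of the ligand genes Wnt7b (log2 fold change 1.96), Wnt6 (1.19) and Wnt4 (1.03). The other falls were those of the ligand gene Wnt11 (-0.87) and the secretion gene Wls (-0.97). Of 9 tested receptors and co-receptors of 14, a list that leaves out the member Fzd7, 0 rose and 7 fell, or 1 and 5 under both scalings. The called share there was 77.8%. The receptor gene Fzd10 fell most, to 1.64, 2.16 and 2.24 TPM in knockout libraries, against 19.4, 19.5 and 18.0 TPM in WT libraries (log2 fold change -2.73, adjusted p = 4.39e-09). The Frizzled genes Fzd7 and Fzd10 therefore moved in opposite directions, and with Fzd10 at 2.01 and Fzd7 at 7.14 TPM on average in knockout libraries, against 19.0 and 1.09 TPM in WT libraries, the higher of the pair differed between genotypes.

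The R-spondin axis, which tunes how long receptors stay on the surface, had 2 rises and 2 falls among 4 tested genes of 9. The secreted agonist Rspo1 was at 1.41 ± 0.298 TPM in knockout and 0.107 ± 0.0524 TPM in WT libraries (adjusted p = 4.59e-06), and Rnf43, a ubiquitin ligase that removes Frizzled receptors and is itself a WNT target, was at 0.368 ± 0.102 TPM in knockout and 1.18 ± 0.0214 TPM in WT libraries (adjusted p = 1.92e-05). Secreted and surface antagonists had 6 rises and 3 falls among 10 tested genes of 16, and neither split changed with the scaling. Apcdd1, a membrane-bound WNT inhibitor that WNT induces in several tissues, fell to 0.544 ± 0.0891 TPM in knockout libraries, against 10.0 ± 0.627 TPM in WT libraries (adjusted p = 1.60e-09). The largest rise among them was that of Sfrp5, a secreted Frizzled-related protein, at 1.52 ± 0.224 TPM in knockout and 0.334 ± 0.191 TPM in WT libraries (adjusted p = 5.64e-05).

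Cytoplasmic transducers and the destruction complex had 4 rises and 10 falls among 15 tested genes of 20, a split that was 5 and 7 after quantile normalization and turned to 6 and 5 after median-of-ratios scaling. Gsk3b, a kinase that marks β-catenin for degradation, fell to 1.86 ± 0.0440 TPM in knockout libraries, against 5.45 ± 0.273 TPM in WT libraries (adjusted p = 1.04e-07), and Frat2, which binds GSK3 and keeps it from the complex, rose to 7.34 ± 0.555 TPM in knockout libraries, against 4.04 ± 0.331 TPM in WT libraries (adjusted p = 9.68e-06). Nuclear cofactors had 4 rises and 6 falls among 14 tested genes of 17, or 7 and 4 under both scalings. The Groucho-family co-repressor Tle4 rose to 17.7 ± 1.01 TPM in knockout libraries, against 7.68 ± 0.255 TPM in WT libraries (adjusted p = 7.16e-08), and its relative Tle6 fell to 3.57 ± 0.445 TPM in knockout libraries, against 8.93 ± 0.324 TPM in WT libraries (adjusted p = 8.06e-07). Of 7 tested genes of 13 further reported WNT targets, 3 rose and 3 fell, or 4 and 3 under both scalings. Tbx3, a T-box factor of naive stem cells, fell to 11.4 ± 0.943 TPM in knockout libraries, against 53.6 ± 0.735 TPM in WT libraries (adjusted p = 1.67e-09), and Dusp6, better known as a target of ERK signalling, rose to 18.6 ± 0.390 TPM in knockout libraries, against 0.646 ± 0.0894 TPM in WT libraries (adjusted p = 1.68e-10). As deposited, the other rises were those of Myc (log2 fold change 2.89) and Id2 (1.06). The other falls were those of Ccnd1 (-1.16) and Tnfrsf19 (-1.17). Several called genes averaged under 1 TPM in 1 genotype and entered the test through the libraries of the other. They were Wnt4, Wnt5b, Wnt6, Wnt7b, Wnt11, Rspo1, Rnf43, Sfrp5, Apcdd1 and Dusp6, with the antagonist genes Dkk3 and Shisa2 and the transducer gene Nkd2. A difference was therefore built into their being tested and into the counts of their roles.

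**Figure D4:**
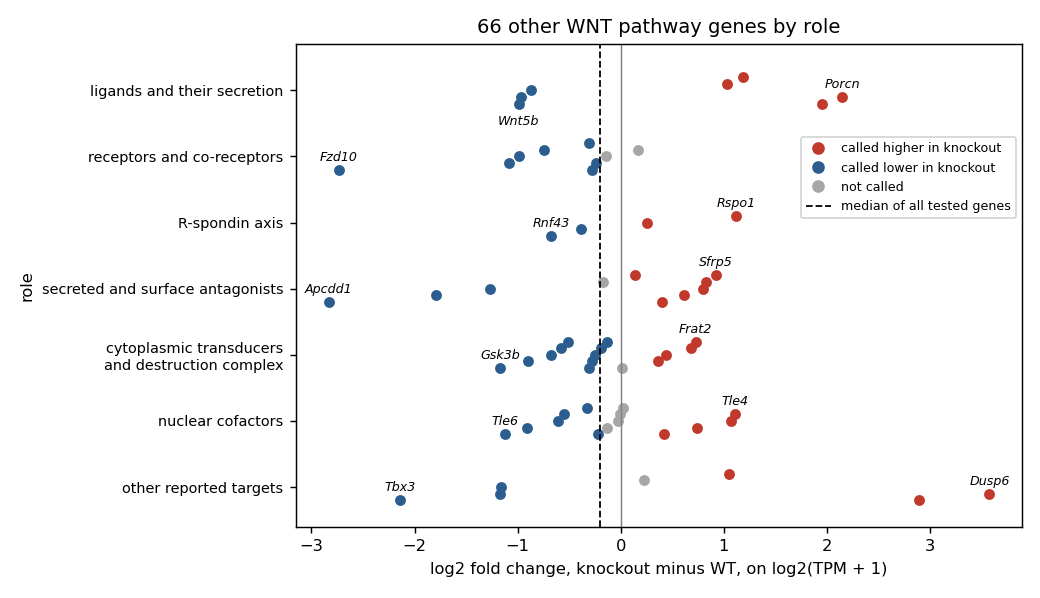
Log2 fold change, knockout minus WT, on log2(TPM + 1) of the 66 other tested WNT pathway genes, one point per gene and one row per role, red for called higher, blue for called lower and grey for not called; the dashed line is the median of all tested genes (-0.20). The largest fall in a row is Apcdd1 (-2.83) and the largest rise is Dusp6 (3.58). As deposited, none of the 9 receptors and co-receptors, which leave out Fzd7, is called higher, where 28.3% of all tested genes are. Quantile normalization and median-of-ratios scaling each call 1 of them higher.

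Overlapping genes limit some of these values, since the labels do not say whether counting used the strand. By the RefSeq annotation of GRCm38.p6, Tcf7 overlaps Skp1, a ubiquitin ligase subunit listed as Skp1a, which was at 206 to 213 TPM in knockout and 354 to 372 TPM in WT libraries. It moved with Tcf7, and its part in the Tcf7 value, and in the TCF/LEF sums, shares and ratios that use it, was not tested. The RNA gene Gm15401, which overlaps Tcf7l1, averaged 0.626 TPM in knockout and 0.636 TPM in WT libraries, far under the Tcf7l1 level. The microRNA gene Mir7090, which overlaps Ctnnb1, reached at most 0.414 TPM in any library. Absent from the RNA table, so of unknown level, were Gm52351 over Cdx1, LOC115486424 over T, Gm31734 over Tcf7l2 and further genes over Tcf7l1.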

How the data were processed

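RNA values are the TPM deposited by the authors in 1 table, with 1 transcript per gene, and every fit used all 6 libraries unless said otherwise. Per the submitters' processing notes, Trim Galore, HISAT2, HOMER, limma and the build mm9 were used for the RNA samples, with no role given, and strand and counting settings are not given in the sources used here. The authors' deposited lists hold, for each transcript, its log2 fold change with a p-value whose pseudocount and adjustment are not given in the sources used here. TPM keep no depth, so the precision comes from the spread of the 3 libraries per genotype. Each gene's spread was moderated in limma with that of all tested genes. Replicates agreed at 0.997 or more (Pearson, across genes).

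Genes reaching 1 TPM in 3 or more of the 6 libraries were kept, and log2(TPM + 1) was compared by limma 3.58.1 in R 4.3.3 (lmFit, eBayes with trend), with Benjamini-Hochberg adjustment over 12196 genes and calls at 0.05. Alternatives were pseudocounts of 0.1 and 5, no filter, a mean of at least 5 TPM, quantile normalization, median-of-ratios scaling (from tested genes above 0 in every library), no variance trend, a replicate block and each library left out, which kept the genes of the 6-library filter, a choice made after a first output was seen. The members and lists were chosen with earlier results of these data known. In each role of the wider list, the called genes with the largest rise and fall and with no overlap between genotypes were named, beside all members, Bach1 and the 3 genes most like Sp5, without predicted genes. The other called ligand, secretion and target genes were named as well, outside that rule, as were Dkk3, Shisa2 and Nkd2 for how they passed the filter. Promoter windows came from RefSeq (GRCm38.p6), for 9 of 10 members. Cdx1 had no entry. Peak lists are in mm9 and were not used. Python 3.11.15, pandas 2.3.3 and matplotlib 3.10.9 were used for the rest.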

Additional observations from a re-analysis of the deposited data

How the results depend on the processing

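Each member kept its direction and its call in every alternative that tested it, 137 of 137 fits. Its size moved with the pseudocount: Sp5 was at -7.56 with 0.1 and -3.60 with 5, T at -3.80 and -0.87, and Fzd7 at 2.64 and 1.00. Members at least 2-fold, 5 as reported and an alternative chosen after seeing the data, were 6 with a pseudocount of 0.1 and 2 with a pseudocount of 5. They were 3 with a mean of at least 5 TPM, which left T, Tcf7l2 and Fzd7 untested. That stricter filter, with fewer genes tested, gave 6542 calls in all, 2112 higher and 4430 lower, and 33 calls among the wider WNT list, 12 higher and 21 lower. Without a filter 36 of the wider list were higher and 42 lower, with 4736 higher and 7981 lower over all genes. Calls over all genes split into 3446 higher and 6681 lower as reported, 4612 higher and 5087 lower with quantile-normalized values, and 4869 higher and 4871 lower with median-of-ratios scaling. Adding 1 to each TPM before the shares put the Tcf7l1 share 17.7 percentage points higher in the knockout, against 19.4 as reported. Leaving out 1 library gave 9806 to 9883 calls over all genes and 10 of 10 members. Same-numbered libraries did not deviate together (correlations of -0.00302, 0.0696 and -0.000791), knockout library 2 alone correlated best with its own number, and the replicate block gave 10149 calls and changed no member's call. Peaks at the members were not run, since no gene positions in mm9 were used here. Depth is unknown, which limits the values under 1 TPM most.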
